A study of Homo sapiens with 4 samples.

Results

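The 38 HOX genes described here lie in 4 clusters, HOXA on chromosome 7, HOXB on chromosome 17, HOXC on chromosome 12 and HOXD on chromosome 2. They were followed through lists of H3K27ac HiChIP loops, pairs of 5 kb genomic bins that were joined more often than background in chromatin carrying acetylated histone H3. A loop was counted for a gene when any of the gene's annotated transcript starts fell in either bin (hg19 coordinates, except where GRCh38.p14 is named). By that rule 31 of 27289 loops in the WT list and 39 of 25621 loops in the STAG2-KD list began or ended at a HOX gene. The 38 genes were compared with the 19229 protein-coding genes of the 22 autosomes in the lists.

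The cells were M14, a human melanoma line in which doxycycline switches on an shRNA that targets STAG2, one of the proteins of the cohesin ring that holds chromatin loops. WT cells carried the same shRNA and were grown without doxycycline for 5 days. STAG2-KD cells received doxycycline for 5 days, so the drug and the knockdown cannot be told apart. The labels name 2 samples in each group, but 1 loop list per group was analysed, without read counts or scores, so no difference between WT and STAG2-KD could be tested and every interval below covers counting error only.

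HOX genes encode homeodomain transcription factors that tell cells their position along the body axis, and within a cluster the gene order follows the order of the body regions in which they are used. Polycomb complexes keep unused HOX genes silent, and Trithorax complexes together with distant enhancers keep used ones active. H3K27ac marks active promoters and enhancers, so a loop at a HOX gene start in these lists is a contact of marked chromatin and not a measure of the gene's RNA.

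RefSeq promoters, 250 bases before to 50 after each start, were matched by symbol for 20 of the 38 genes (build GRCh38.p14, in which the promoter positions below are given). Each matched a single place in hg19. The 4 distinct promoters that fell in a bin with a loop are shown because they are the known starts at which the contacts below end, with every CpG in capitals. RefSeq lists the same upstream promoter for HOXC4 and HOXC5.

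HOXC4 promoter, chr12:54016638-54016937, plus strand: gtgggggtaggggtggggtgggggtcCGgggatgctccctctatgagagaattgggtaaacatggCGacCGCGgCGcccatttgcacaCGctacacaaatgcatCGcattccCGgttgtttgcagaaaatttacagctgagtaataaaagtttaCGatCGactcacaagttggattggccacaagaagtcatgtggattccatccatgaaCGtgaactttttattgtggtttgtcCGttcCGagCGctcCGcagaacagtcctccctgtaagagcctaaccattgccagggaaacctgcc
HOXA4 promoter, chr7:27130708-27131007, minus strand: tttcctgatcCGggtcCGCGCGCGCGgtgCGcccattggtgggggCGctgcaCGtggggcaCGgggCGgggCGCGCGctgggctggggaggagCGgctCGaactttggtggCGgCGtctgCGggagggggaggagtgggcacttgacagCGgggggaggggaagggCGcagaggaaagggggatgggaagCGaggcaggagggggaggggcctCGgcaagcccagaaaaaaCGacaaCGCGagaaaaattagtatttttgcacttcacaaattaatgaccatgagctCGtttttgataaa
HOXA13 promoter, chr7:27200042-27200341, minus strand: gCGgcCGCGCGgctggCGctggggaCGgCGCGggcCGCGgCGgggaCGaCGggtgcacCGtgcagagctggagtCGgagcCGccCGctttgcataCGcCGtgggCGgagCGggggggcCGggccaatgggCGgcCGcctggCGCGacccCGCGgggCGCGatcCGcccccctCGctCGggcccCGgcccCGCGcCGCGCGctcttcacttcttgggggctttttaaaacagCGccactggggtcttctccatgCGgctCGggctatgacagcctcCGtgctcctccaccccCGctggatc
HOXD8 promoter, chr2:176129455-176129754, plus strand: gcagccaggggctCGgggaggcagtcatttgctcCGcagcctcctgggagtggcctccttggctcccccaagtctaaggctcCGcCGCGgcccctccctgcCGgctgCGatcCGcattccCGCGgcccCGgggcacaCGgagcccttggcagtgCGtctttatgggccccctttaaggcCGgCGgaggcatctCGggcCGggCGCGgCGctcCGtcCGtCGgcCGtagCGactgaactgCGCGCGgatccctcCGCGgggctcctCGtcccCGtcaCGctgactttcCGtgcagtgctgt

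The HOXC4 promoter, which lies in the bin with the most loops of any HOX bin, held 15 CpG, close to the median of 14 over all 35116 RefSeq promoters. HOXA4 held 27 CpG, HOXD8 34 and HOXA13 44. The RefSeq promoter listed for HOXD3 fell at chr2:177021785-177022084 in hg19, in a bin with 0 loops, and the HOXD3 loops described below ended at a bin with an upstream start of the gene. The genes without a promoter entry were HOXA5, HOXB2, HOXB3, HOXB4, HOXB5, HOXB6, HOXB7, HOXB8, HOXB9, HOXB13, HOXC6, HOXC8, HOXC9, HOXC10, HOXC11, HOXC12, HOXC13 and HOXD9.

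HOX loops mostly left their cluster and were long. The WT list held 31 (exact Poisson 95% interval 21.1 to 44.0) and the STAG2-KD list 39 (27.7 to 53.3). These intervals overlap, and in the earlier 50% of each chromosome's lines the order turned, with 17 HOX loops in WT and 13 in STAG2-KD. Over both lists there were 51 distinct HOX loops, 19 of them present in both lists, 12 in WT alone and 20 in STAG2-KD alone. Shared loops were thus 61.3% of the HOX loops in WT (exact Clopper-Pearson 95% interval 42.2 to 78.2), beside 41.2% of all WT loops with a protein-coding start. In STAG2-KD they made 48.7% (32.4 to 65.2), beside 43.4% by the same measure. In the earlier 50% of lines of both lists the WT share was 35.3% (6 of 17), beside 35.6% of all 13637 WT loops in those lines, so the higher share of shared HOX loops in WT was not seen there. HOX loops share bins and are not independent of each other.

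The number of genes with a loop varied from cluster to cluster. In WT 14 of the 38 genes had at least 1 loop (36.8%), beside 39.1% of all protein-coding genes. In STAG2-KD 15 of 38 had one (39.5%), beside 36.8% of all protein-coding genes. Both shares are near their backgrounds. A loop was present in both lists at 12 genes, in STAG2-KD alone at HOXB9, HOXC9 and HOXC11, and in WT alone at HOXB2 and HOXB8. The remaining 21 genes had 0 loops in either list, and for each a count of 0 allows up to 3.69 loops at the upper bound of its interval. They were HOXA2, HOXA3, HOXA5, HOXA6, HOXA7, HOXA9, HOXA10 and HOXA11, then HOXB1, HOXB5, HOXB6 and HOXB13, then HOXC8 and HOXC12, and HOXD1, HOXD4, HOXD9, HOXD10, HOXD11, HOXD12 and HOXD13. HOXC was the best covered cluster, with a loop in either list at 7 of 9 genes, followed by HOXB with 6 of 10, HOXD with 2 of 9 and HOXA with 2 of 10. The 38 genes had 55 bins with a start, and 39 of these bins had 0 loops in either list.

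**Figure D1:**
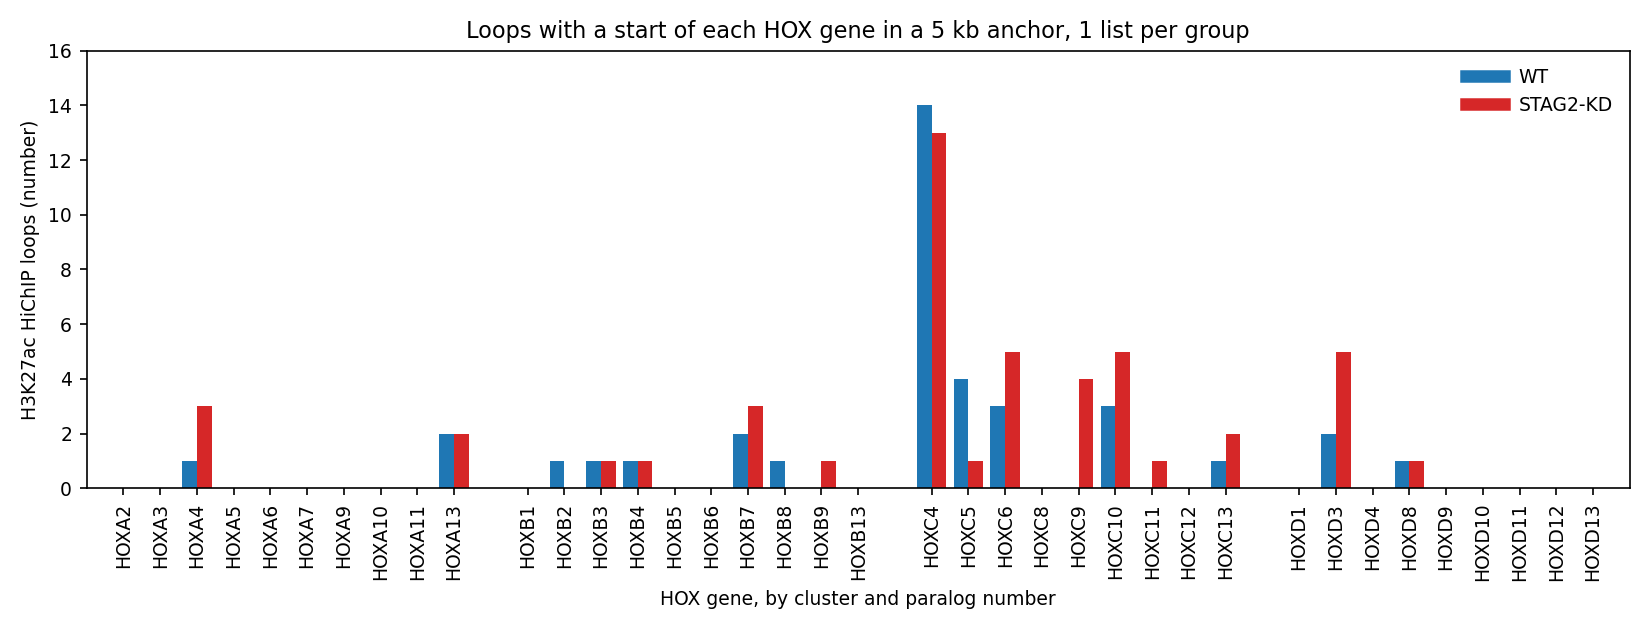
Number of H3K27ac HiChIP loops with a start of each HOX gene in a 5 kb anchor, for the WT list (blue) and the STAG2-KD list (red). HOXC4 stands above the rest with 14 and 13 loops, and 21 genes have 0 in both lists.

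HOXC held most of the contacts, 20 of the 31 HOX loops in WT (12.2 to 30.9) and 23 of the 39 in STAG2-KD (14.6 to 34.5). The cluster spans chr12:54330001-54450000 from the bin of HOXC13 to that of the downstream HOXC4 start. HOXC4, a central paralog, had the most loops of any HOX gene in both lists, 14 in WT (7.65 to 23.5) and 13 in STAG2-KD (6.92 to 22.2), of which 10 were shared. Its loops ended at 2 of its 3 start bins. The upstream bin, chr12:54410001-54415000, had 11 loops in each list, and the downstream bin, chr12:54445001-54450000, had 4 in WT and 3 in STAG2-KD. A shared loop of 35 kb joined these bins to each other.

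HOXC6, HOXC9 and HOXC10, which help to set the identity of motor neurons along the spinal cord, and HOXC5 made up most of the rest. HOXC6 and HOXC10 have starts in the same bin, chr12:54380001-54385000, and so share all their loops, 3 in WT (0.619 to 8.77) and 5 in STAG2-KD (1.62 to 11.7), with 2 shared. HOXC9 had 0 loops in WT (0 to 3.69) and 4 in STAG2-KD (1.09 to 10.2). HOXC5 went the other way, with 4 loops in WT and 1 in STAG2-KD. HOXC13, a regulator of hair and nail keratins, had 1 loop in WT and 2 in STAG2-KD, and HOXC11 had 0 and 1.

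A gene was called different when one list had at least 2 times as many loops as the other and at least 3 more. By that rule HOXC9 and HOXD3 had more loops in STAG2-KD, 2 of 38 genes beside 1.96% of all protein-coding genes. HOXC5 had fewer, 1 of 38 genes beside 2.62%. The HOXC5 call rests on its only start in the annotation used. RefSeq lists the upstream HOXC4 promoter for HOXC5, in a bin with 11 loops in each list. With that start counted the rule would not call HOXC5. HOXD3 and HOXC5 sat exactly at the limit of 3 loops, and HOXA4, HOXC6 and HOXC10, each with 2 more loops in STAG2-KD, fell just outside it. With 1 start per gene HOXC9 was no longer called, and in the earlier 50% of lines HOXC9 was the only one called. The counting intervals of HOXC9, 0 to 3.69 and 1.09 to 10.2, overlap.

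The partners of HOXC lay on both sides of the cluster, in different numbers in the lists. Of the HOXC loops that left the cluster, 2 of 16 in WT and 7 of 18 in STAG2-KD ran to lower coordinates, past HOXC13. The other 14 in WT and 11 in STAG2-KD ran to higher coordinates, past the end of HOXC4. On the lower side a single bin, chr12:54160001-54165000, was joined to HOXC4 alone in WT. In STAG2-KD it was joined by 5 loops to HOXC13, HOXC11, the HOXC6 and HOXC10 bin, HOXC9 and HOXC4, at 170, 205, 220, 230 and 250 kb. The bin holds no annotated transcript start and overlaps no protein-coding gene, and the nearest protein-coding start, of CALCOCO1, was 38.5 kb away. All its loops together numbered 1 in WT and 6 in STAG2-KD.

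On the higher side the contacts crowded around SMUG1, a uracil-DNA glycosylase of base excision repair. The bin with the SMUG1 start, chr12:54580001-54585000, was joined to HOXC by 4 loops in WT and 3 in STAG2-KD, over both lists the most of any bin outside the clusters. Of these, the loops of both HOXC4 start bins and of the HOXC6 and HOXC10 bin were shared, and that of HOXC5, at 155 kb, was WT-only. The bin chr12:54555001-54560000, over an exon and untranslated part of SMUG1, had 3 HOXC loops in WT, from both HOXC4 start bins at 145 and 110 kb and from HOXC5 at 130 kb, and 0 in STAG2-KD. That bin had 5 loops of any kind in WT and 0 in STAG2-KD. The last WT-only loop of HOXC5 ran 170 kb to chr12:54595001-54600000, a bin that HOXC4 contacted in both lists. The HOXC5 loop present in both lists was the 20 kb contact with the downstream HOXC4 bin. In STAG2-KD 2 bins just beyond, chr12:54590001-54595000 and chr12:54605001-54610000, had loops to HOXC9 at 200 and 215 kb and the latter also to the HOXC6 and HOXC10 bin at 225 kb, and both had 0 loops of any kind in WT.

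**Figure D2:**
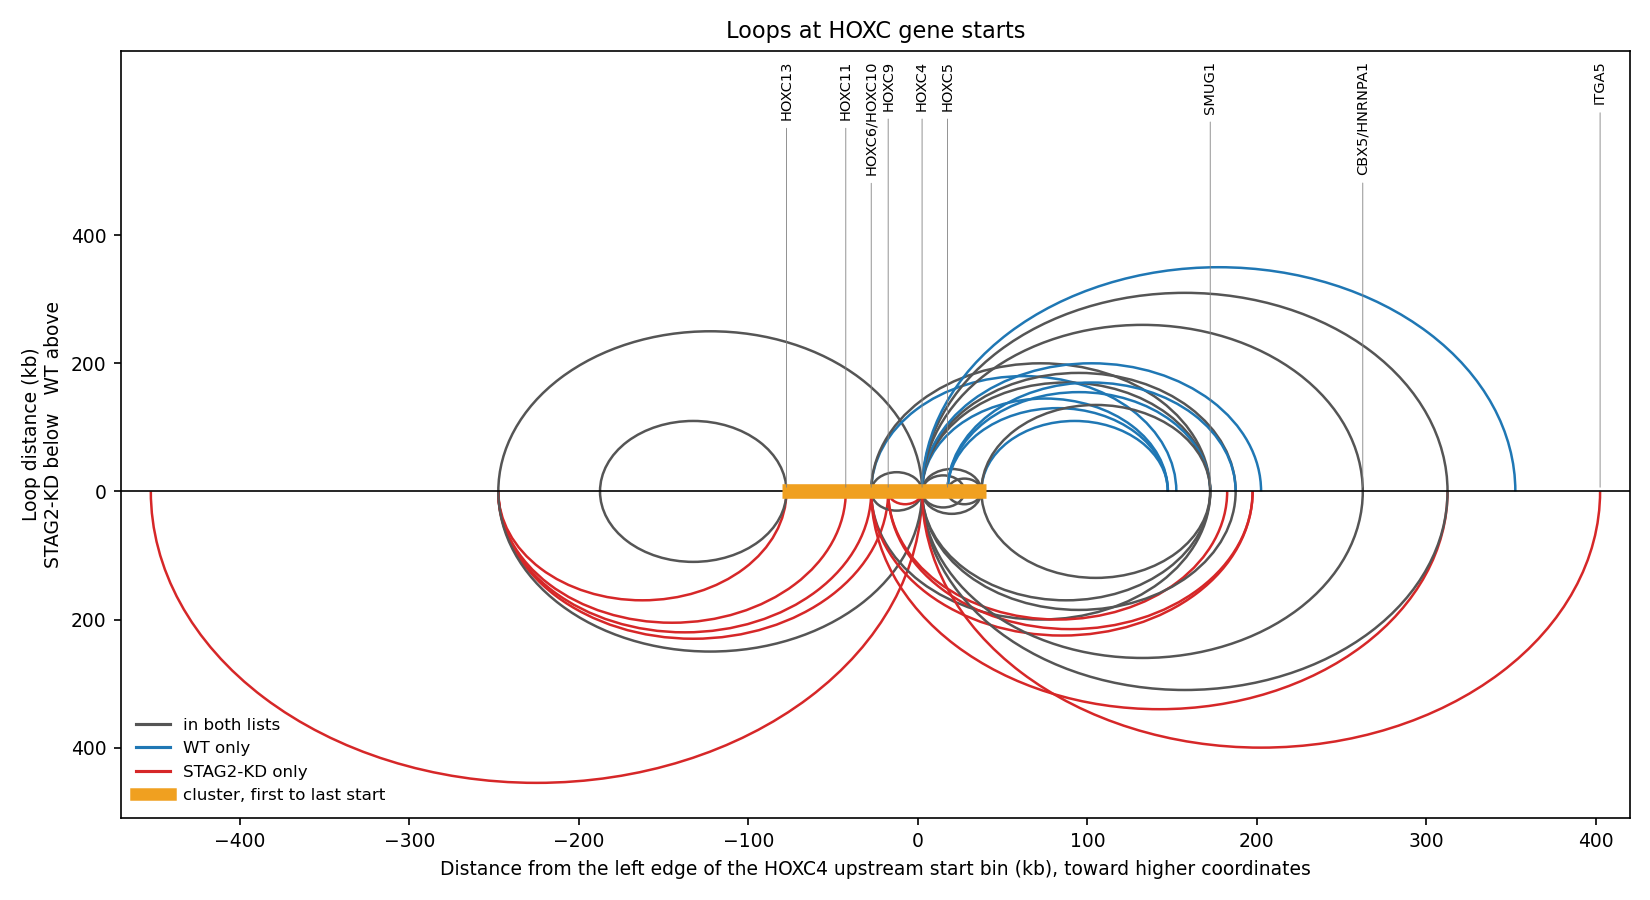
Arcs join the 2 anchors of each HOXC loop, with WT above and STAG2-KD below the line; the x axis is the distance from the HOXC4 upstream start bin in kb, arc height is the loop distance in kb, and the orange bar is the cluster. Below the line 5 loops, 4 red and 1 grey, meet at the bin whose loop to HOXC4 spans 250 kb, where WT has 1, and the blue WT-only arcs all run to the right, around and past SMUG1.

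HOXC4 also reached farther genes. A shared loop of 260 kb ended at the bin with the starts of CBX5, which encodes the heterochromatin protein HP1 alpha, and HNRNPA1, which encodes a splicing regulator. Another shared loop, of 310 kb, ended in an intron of COPZ1, a coatomer subunit, and in STAG2-KD the HOXC6 and HOXC10 bin had a loop of 340 kb to the same bin. That bin lay 0.633 kb from a start of COPZ1. The longest HOXC loop in WT ran 350 kb from HOXC4 to an exon of ZNF385A and was WT-only. The longest in STAG2-KD ran 455 kb from HOXC4 to an intron of ATF7, a transcription factor gene, and a loop of 400 kb ended at the start of the integrin gene ITGA5. Both were STAG2-KD-only. The ATF7 bin had 5 loops in all in WT and 10 in STAG2-KD.

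Within the HOXC cluster there were 4 loops in WT and 5 in STAG2-KD, all 4 of the WT loops shared. HOXC4 was joined with the HOXC6 and HOXC10 bin at 30 kb and with its own downstream start at 35 kb. It was also joined with a bin inside the annotated HOXC4 gene at 25 kb. The other shared loop joined HOXC5 to the downstream HOXC4 start at 20 kb. The fifth, in STAG2-KD alone, joined HOXC9 and HOXC4 at 20 kb. In HOXB 1 loop per list stayed within the cluster, both ending at the bin shared by HOXB3 and HOXB4, 40 kb long in the WT list and 20 kb in the STAG2-KD list. In HOXA and HOXD 0 loops had both anchors in the cluster. Over the 4 clusters the share within was 16.1% in WT (5.45 to 33.7) and 15.4% in STAG2-KD (5.86 to 30.5), and without HOXC it was 9.09% and 6.25%. For the 64 replication-dependent histone genes, another clustered family, the share was 87.2% (78.8 to 93.2) and 90.2% (83.4 to 94.8). For the 16 S100 genes of chromosome 1 it was 30% (6.67 to 65.2) and 50%, or 7 of 14 loops. The HOX and histone intervals did not overlap and those of HOX and S100 did, in STAG2-KD too, where the exact interval of the S100 share ran from 23.04 to 76.96%. In the histone and S100 families a cluster held genes within 1 Mb of the next, whereas the HOX clusters span 100 to 205 kb. A wider cluster can hold longer loops, so these shares are not a like measure. No test was made because loops of a family share bins.

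HOXA had 3 loops in WT and 5 in STAG2-KD, at HOXA4 and HOXA13, which stand near opposite ends of the cluster (chr7:27140001-27240000). HOXA13, which patterns the hands, feet and urogenital tract, had 2 loops in each list, both shared. They ran 725 and 820 kb to introns of JAZF1, a zinc finger gene, at chr7:27960001-27965000 and chr7:28055001-28060000, and the latter was the longest HOX loop of either list. The bin at 820 kb had 14 loops of any kind in WT and 18 in STAG2-KD, and the bin at 725 kb had 6 and 3. The nearest JAZF1 start was 0.418 kb from the bin at 820 kb and 56.3 kb from the bin at 725 kb. HOXA4 had 1 loop in WT (0.0253 to 5.57) and 3 in STAG2-KD (0.619 to 8.77). Its shared loop ran 35 kb to the bin with the start of HOTAIRM1, a noncoding RNA gene, just before the first HOXA bin used here, so it counts as out of the cluster here and as within it when the cluster is widened by 5 bins. The STAG2-KD-only loops of HOXA4 ran 270 kb to the start of SKAP2, an adaptor of Src family kinases, and 795 kb to an intron of the sorting nexin gene SNX10. The SKAP2 bin had 0 loops in WT and 1 in STAG2-KD, whereas the SNX10 bin, 4.2 kb from a start of SNX10, had 9 in both.

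HOXB had 5 loops in each list, of which 1 was shared. With anchors allowed to differ by 1 bin the shared share was 60% in WT, equal to that of HOXC, and 40% in STAG2-KD, where exact bins gave 20% in both. All its loops out of the cluster ran to lower coordinates, 4 in each list. HOXB7, the HOXB gene with the most loops, had 2 in WT and 3 in STAG2-KD. Its shared loop ran 370 kb to an intron of SKAP1, an adaptor of T cell signalling, at chr17:46315001-46320000, and in STAG2-KD HOXB9 had a loop of 385 kb to the same bin, the longest in HOXB. Other HOXB7 loops ended in further SKAP1 introns, at 295 kb (WT) and 335 kb (STAG2-KD). The bin chr17:46560001-46565000 holds no annotated transcript start and overlaps no protein-coding gene. It was joined to HOXB2 at 60 kb and HOXB8 at 130 kb in WT, and to HOXB7 at 125 kb in STAG2-KD. HOXB7 and HOXB8 lie in adjacent bins, so the latter contacts differ by 1 bin. That bin had 6 loops in all in WT and 10 in STAG2-KD. HOXB13, a gene of the prostate and hindgut that stands apart from the other HOXB genes, had 0 loops in both lists.

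HOXD had 3 loops in WT and 6 in STAG2-KD, and all ran to higher coordinates, away from HOXD13. HOXD3 had 2 loops in WT (0.242 to 7.22) and 5 in STAG2-KD (1.62 to 11.7), all from chr2:177000001-177005000. HOXD8 had 1 loop in each list, the same one. HOXD3 and HOXD8 met at chr2:177500001-177505000, the bin with starts of the noncoding genes LINC01116 and LINC01117, with loops of 500 and 510 kb in both lists. A further shared HOXD3 loop ran 320 kb to a bin with no annotated transcript start and no overlap with a protein-coding gene. The STAG2-KD-only loops of HOXD3, at 355, 415 and 490 kb, ended in the stretch between those partners, at bins that had 0 loops in WT and 1 in STAG2-KD. The bin at 355 kb also held a start of LINC01117. The posterior HOXD genes, HOXD9 to HOXD13, which pattern the limbs and genitals, had 0 loops. In the earlier 50% of lines HOXD had 1 loop in WT and 0 in STAG2-KD.

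**Figure D3:**
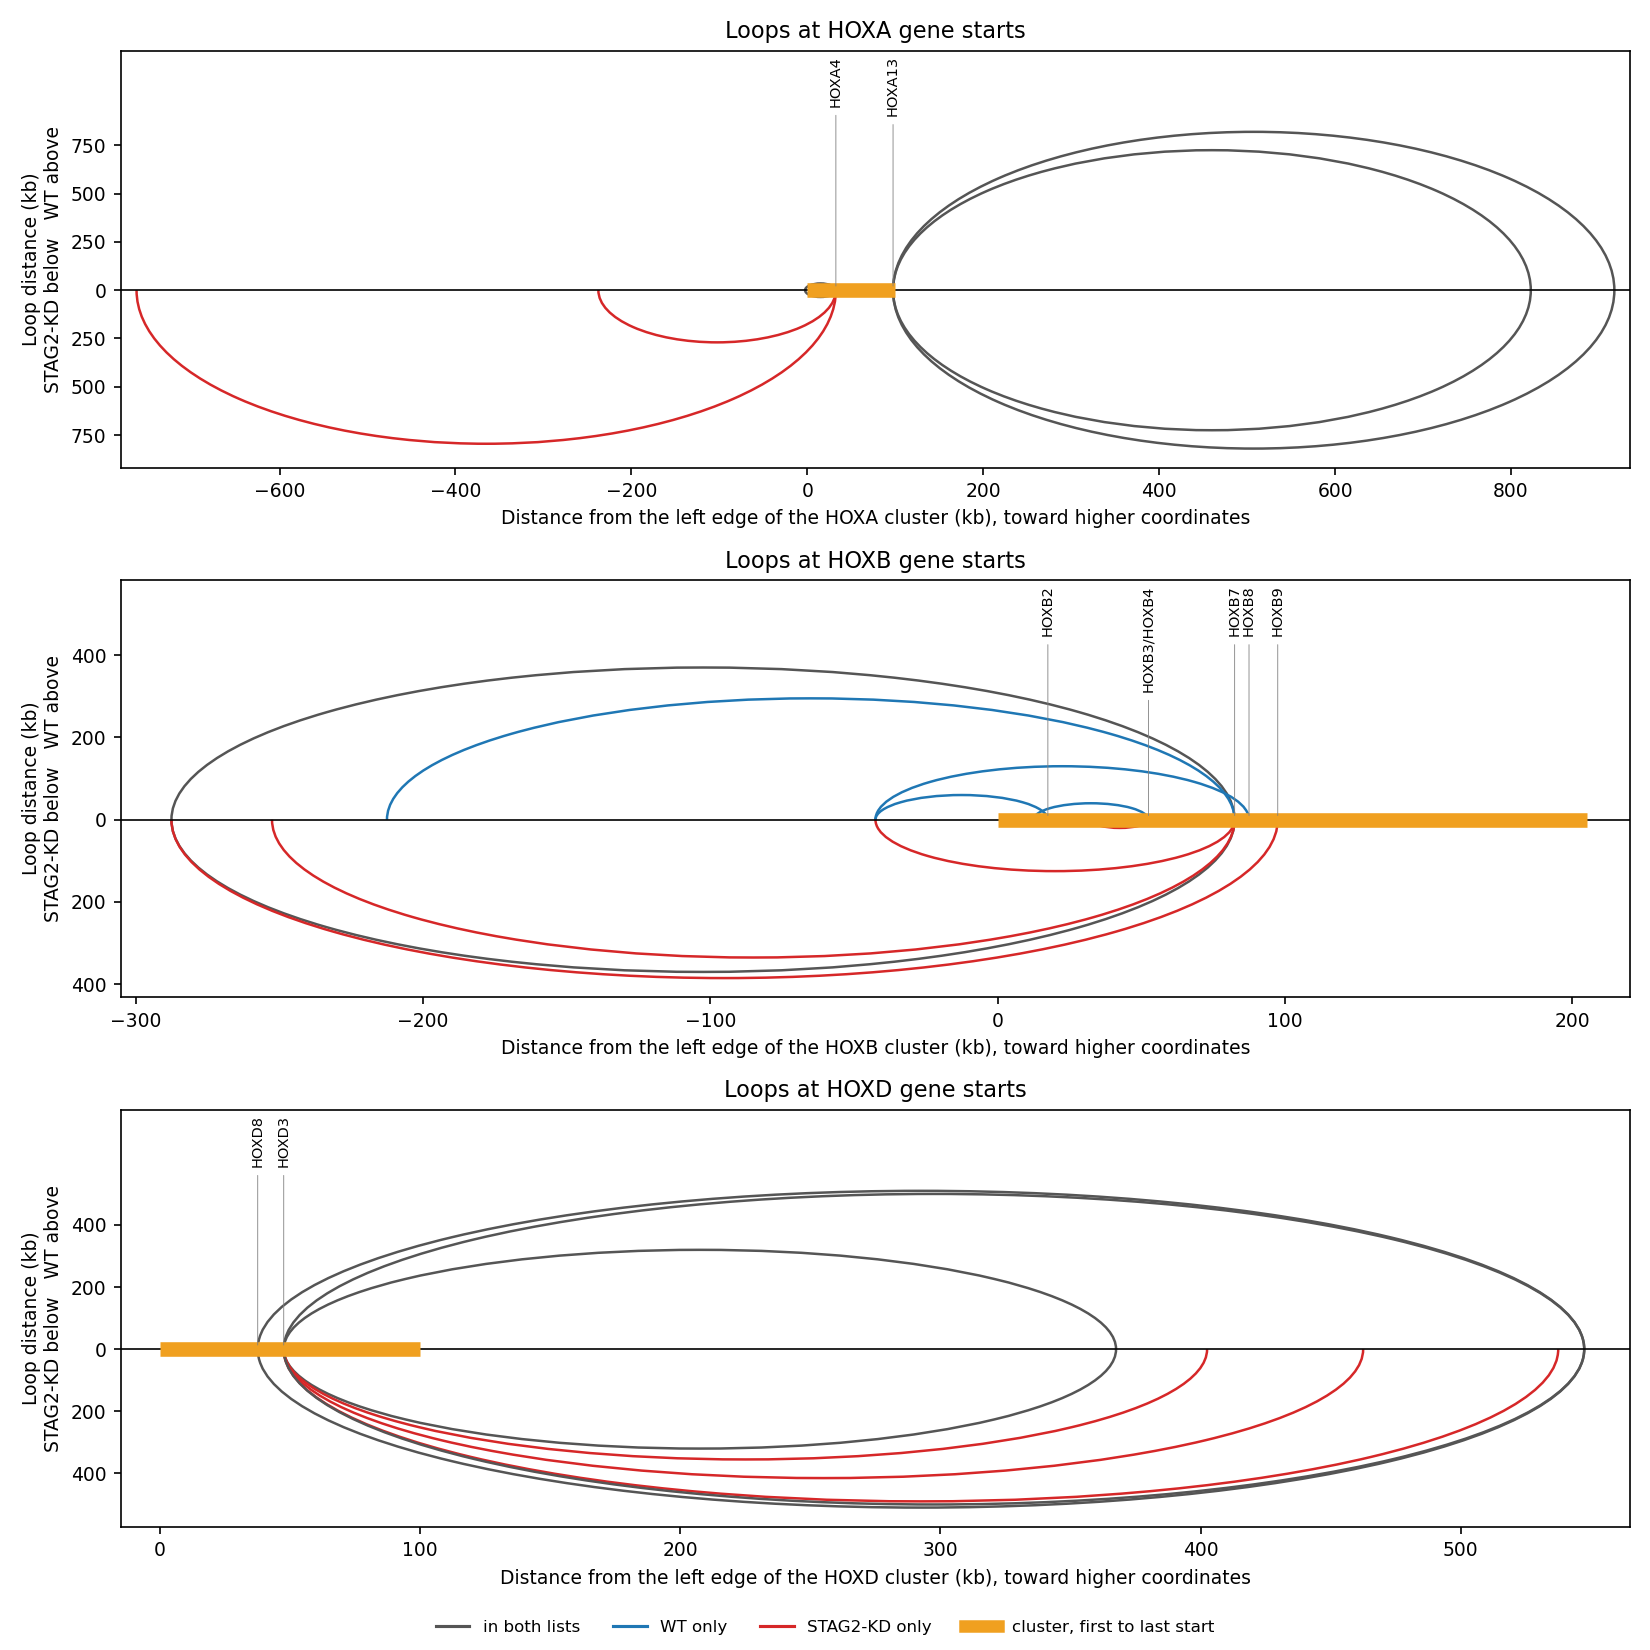
Arcs join the 2 anchors of each HOXA, HOXB and HOXD loop, drawn as distance from the left edge of the cluster in kb, with WT above and STAG2-KD below and arc height giving the loop distance in kb. HOXA13 reaches 725 and 820 kb in both lists, the HOXB loops that leave the cluster all run to the left, and the HOXD loops all run to the right.

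The loops of HOX genes were longer at the median than those of protein-coding genes as a whole. Beside those of the histone genes they were shorter at the median in WT and longer in STAG2-KD, with overlapping intervals. The median distance was 170 kb in WT (exact order-statistic 95% interval 130 to 260) and 230 kb in STAG2-KD (185 to 340). The medians over all loops were 90 and 85 kb, and those over loops with a protein-coding start were the same. The histone genes had medians of 180 kb (120 to 320) in WT and 172.5 kb (125 to 300) in STAG2-KD, whose intervals overlap those of the HOX loops. The HOXC medians were 162.5 kb (110 to 200) in WT and 200 kb (135 to 230) in STAG2-KD, and these intervals overlap. The HOXA median was 725 kb in both lists, the HOXD medians were 500 and 452.5 kb, and the HOXB medians were 130 and 335 kb, each over 6 loops or fewer. Without HOXC, 11 HOX loops in WT and 16 in STAG2-KD were left, with medians of 320 and 377.5 kb.

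**Figure D4:**
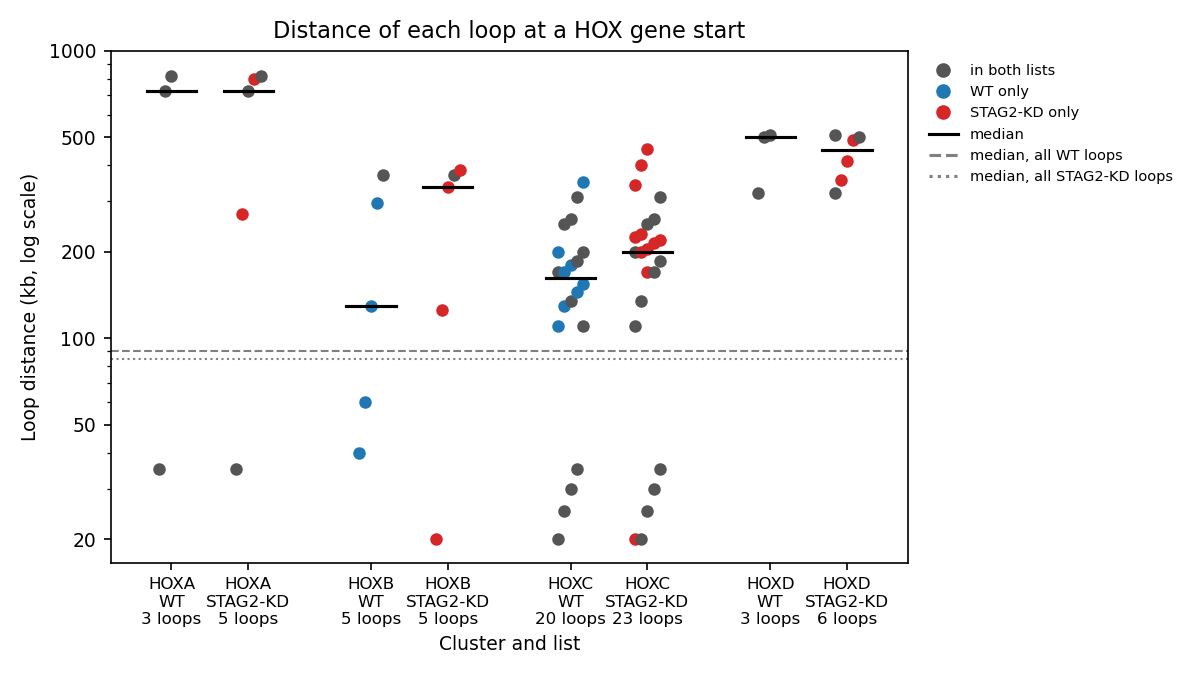
Distance of every HOX loop in kb on a log axis, by cluster and list, coloured by whether the loop was in both lists, WT only or STAG2-KD only; black bars are medians and grey lines are the medians of all loops, 90 kb (WT) and 85 kb (STAG2-KD). Most points lie above the grey lines in every cluster, and the HOXA13 loops of 725 and 820 kb stand highest.

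By position in the body plan, the 15 central genes (paralogs 4 to 8) had most of the loops, 25 in each list. HOXC4 alone had 14 of these in WT and 13 in STAG2-KD. The 7 anterior genes (paralogs up to 3) had 4 in WT and 6 in STAG2-KD. The 16 posterior genes (paralogs 9 to 13) had 6 in WT and 15 in STAG2-KD, and those with a loop numbered 3 in WT and 6 in STAG2-KD. A loop can count in more than 1 of these groups. Of the 15 posterior loops in STAG2-KD, 12 were at HOXC genes, including the 5 of the bin that HOXC10 shares with the central gene HOXC6.

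The anchors of HOX loops found in a single list were looked up in the other list. The same count was not made over all loops, so it cannot be said whether HOX loops differ from them. Of the 12 WT-only HOX loops, 4 had both anchors used by other loops of the STAG2-KD list, 8 had 1 and 0 had none. Of the 20 HOX loops of STAG2-KD alone, 6 joined bins both in use in WT, 12 had 1 and 2 had none. Both of the last were HOXC9 loops, to the bins beyond SMUG1. Few were near misses of bin position, since 3 of the 12 and 4 of the 20 had a loop of the other list with both anchors within 2 bins. The 51 distinct HOX loops had 28 partner bins outside the clusters, 18 in WT and 23 in STAG2-KD with 13 in both, and 5 of the 28 held a protein-coding start. Another 6 loops had an anchor inside a cluster but at no HOX gene start, 4 in HOXB and 2 in HOXC, and 0 of these were shared.

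CTCF stops loop-extruding cohesin at its sites, preferably at pairs of sites that face each other, so the anchors were searched on both strands for the CTCF core letters CNAGGGGGC. The core was present in 6 of 33 HOX loop anchors in WT (18.2%, 6.98 to 35.5) and in 7 of 39 in STAG2-KD (17.9%, 7.54 to 33.5). Of all WT anchors 14.3% had it, and of the STAG2-KD anchors 3092 of 22070, shares within both intervals, and 3.50% of the 300-base RefSeq promoters had it. With CAGGGGGCG, a stricter form that shares the letters AGGGGGC with the first, the shares were 9.09% and 2.56%, beside 4.92% and 4.84% of all anchors. The median GC content of HOX loop anchors was 48.9% in WT and 47.5% in STAG2-KD, beside 44.4% of all anchors of either list. The shares were not adjusted for GC content. None of the 27 RefSeq promoters of HOX genes held the core. A core at both anchors was found at 0 of 31 HOX loops in WT and 1 of 39 in STAG2-KD, beside 2.92% and 2.85% of all loops. That loop was the contact of HOXC9, seen in STAG2-KD alone, with the bin chr12:54605001-54610000, and its cores faced each other. Those sites, and the one in the neighbouring bin that HOXC4 contacted in WT alone, are shown with the core in capitals and 10 bases to either side (hg19 positions of the core, each read on its own strand).

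HOXC9 bin, chr12:54394622-54394630, plus strand: gggagaggggCGAGGGGGCgaggactcaa
STAG2-KD-only partner of HOXC9, chr12:54606999-54607007, minus strand: cccttccctgCTAGGGGGCaggtactcca
WT-only partner of HOXC4, chr12:54614018-54614026, plus strand: acagtggctaCCAGGGGGCagcacaaacc

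A match of these letters is a description of the sequence and does not show that CTCF was bound.

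Noncoding genes inside the clusters largely shared bins with the HOX genes and carried the same loops. Of 23 matched, 7 had a loop in WT and 8 in STAG2-KD. HOXC-AS1 and HOXC-AS2, antisense genes with starts in the HOXC9 bin, had 0 loops in WT and 4 in STAG2-KD, and HOXD-AS2, in the HOXD3 bin, had 2 and 5. HOTTIP, next to HOXA13, had 2 in each list, and HOTAIR, in the HOXC11 bin, had 0 and 1. MIR615 lies in the HOXC5 bin and had the same counts, 4 loops in WT and 1 in STAG2-KD. By the rule above, 3 of the 23 had more loops in STAG2-KD and 1 had fewer, all in bins of HOX genes already named. HOXC-AS1 and HOXC-AS2 were called on the same 4 loops, so these calls are not separate from each other or from those of the HOX genes. The shares over all noncoding genes were not computed, so the counts of noncoding genes with a loop or called have no background here. MIR196A2, MIR196A1, MIR196B and MIR10B had 0 loops in both lists. The mature microRNAs of MIR615 are shown with those of the miR-196 family for comparison, with the seed, bases 2 to 8, in capitals (RefSeq, GRCh38.p14).

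hsa-miR-615-5p: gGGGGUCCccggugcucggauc
hsa-miR-615-3p: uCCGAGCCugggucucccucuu
hsa-miR-196a-5p: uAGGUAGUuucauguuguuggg
hsa-miR-196b-5p: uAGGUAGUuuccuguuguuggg

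The miR-196a and miR-196b strands share a seed, and the miR-615 strands have seeds of their own.

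The genes that flank the clusters ranged as widely as the clusters did. All 6 on the HOXC side had loops in both lists, led by ATF7 with 10 in WT and 11 in STAG2-KD and CBX5 with 8 and 12. On the HOXA side 3 of 6 had a loop in WT and 4 in STAG2-KD. On the HOXD side only HNRNPA3 of 5 had any, 8 and 7, and on the HOXB side 0 of 7 did. Of the 9 TALE homeodomain genes, whose proteins bind DNA together with HOX proteins, 5 had a loop in WT and 3 in STAG2-KD, with MEIS1 at 4 and 3 loops and MEIS2 at 3 and 1. Of 15 Polycomb genes 8 had a loop in WT and 9 in STAG2-KD. EED, a core subunit of Polycomb complex PRC2, was the only one of these called, with 1 loop in WT and 4 in STAG2-KD. The same rule called 1.96% of all protein-coding genes higher in STAG2-KD. All 7 Trithorax genes matched had loops in both lists, with KMT2A at 6 in each. Of all protein-coding genes 39.1% had a loop in WT and 36.8% in STAG2-KD.

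The lists bore contacts at melanocyte lineage genes, with loops at 5 of 5 in WT and 4 of 5 in STAG2-KD. SOX10 had 4 loops in each list, and the counts in WT and STAG2-KD were 7 and 2 for MITF, 7 and 4 for PMEL, 3 and 5 for MLANA and 3 and 0 for DCT. By the rule of 2 times and 3 loops MITF and DCT had fewer in STAG2-KD, 2 of 5 genes beside 2.62% of all protein-coding genes. The matched markers of other cell types had 0 loops, except KRT14 with 2 in each list and CD3E with 1 and 3. The lists hold loop positions and no RNA or protein levels, so the STAG2 knockdown could not be checked here. STAG2 itself lies on the X chromosome, which neither list covers.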

How the data were processed

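The labels give H3K27ac HiChIP of M14 cells in 2 samples per group, WT and STAG2-KD, and 1 loop list per group was analysed. Per the labels and methods, the authors used HiC-Pro for alignment (hg19), hichip-peaks for H3K27ac peaks of the HiChIP reads themselves and FitHiChIP for loops. The methods drop self-ligated loops and those above an FDR limit before testing differential loops, and do not say whether that limit was applied to the lists. Versions, the meaning of the line order and whether replicates were merged are not given in the sources used here. The deposited lists hold positions and no measurement, in 3 columns with the chromosome and the outer positions of each pair of 5 kb anchors, with no counts, scores or headers. Depth is therefore unknown, and 1 STAG2-KD line was off the 5 kb grid.

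Anchors were rebuilt as 5 kb bins and joined to transcript starts of GENCODE 44 lifted to GRCh37, which has the coordinates of hg19 (Python 3.11.15, numpy 2.4.6, scipy 1.17.1, matplotlib 3.10.9). A loop was shared when both anchors lay in the same bins of the other list. A cluster spanned the bins from its first to its last start. Counts have exact Poisson, shares exact Clopper-Pearson and medians exact binomial 95% intervals, and no test was made. On simulated data with 2000 loops all 1000 planted shared loops were recovered. The genes described were the 10 with the most loops, those with 0 loops, those called by the rule of 2 times and 3 loops, each cluster's longest loop and its 3 most joined outside bins. Members and lists were chosen with earlier results of these data known. Alternatives were other definitions of a start, sharing and clusters, a distance limit of 1 Mb, loops per 10000, the earlier 50% of lines, leaving out each cluster and a stricter core. KDM6A (X chromosome), MIR10A and PECAM1 were not matched.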

Additional observations from a re-analysis of the deposited data

How the results depend on the processing

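Of 261 alternative values of 46 results, 232 stayed close to the reported ones and 29 moved. In the earlier 50% of lines the HOX genes had 17 WT and 13 STAG2-KD loops, the shared share in WT was 35.3%, 7 genes had a loop in STAG2-KD, 1 gene had more loops and 0 had fewer. By cluster, WT and STAG2-KD then had 3 and 2 HOXB loops, 10 and 9 HOXC loops and 1 and 0 HOXD loops, STAG2-KD had 2 HOXA loops, of which 100% were shared, 0% of HOXB loops were shared in either list and 0% stayed within in STAG2-KD, and 0% of HOXD loops were shared in WT. With 1 start per gene HOXB had 3 WT loops and 2 STAG2-KD loops with 0% shared in both, and 1 gene had more loops. With starts within 5 kb of an anchor HOXB had 8 loops in WT. Without HOXC there were 11 and 16 loops with medians of 320 and 377.5 kb. With the stricter core the STAG2-KD share was 2.56%. The others stayed within 1.5 times for counts and within the counting interval for shares and medians (the range of the loops where too few gave an interval), which is wide for the small clusters. Within those limits the HOXB shared share reached 60% in WT and 40% in STAG2-KD with anchors within 1 or 2 bins, the HOXB medians went to 60 and 202.5 kb with 1 start per gene (60 kb in WT also in the earlier 50% of lines), the HOXA median in STAG2-KD went to 427.5 kb in the earlier 50% of lines, the share within went to 9.09% and 6.25% without HOXC, and the WT share with the stricter core was 9.09%. The share within of HOXB was 33.3% in WT and 50% in STAG2-KD with 1 start per gene and 33.3% in WT in the earlier 50% of lines, that of HOXC in WT was 10% there, and that of HOXA was 33.3% and 20% with the cluster widened by 5 bins. Taking part of the lines leaves fewer loops by construction, and the cause of the other moves was not tested. No paired analysis was possible because 1 loop list stands for each group, which also prevents leaving out a replicate, and no stricter score limit could be run because the lists hold positions alone.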
